A study of Rattus norvegicus with 10 samples.

Results

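The HS14 cultures were myoblast cultures grown from the soleus muscle of rats kept in hindlimb suspension (HS) for 14 days, and they were compared with Control cultures from rats that were not suspended. The comparison used the 2 HS14 and the 2 Control libraries, chosen by their sample names, which are 4 of the 10 libraries of the series. The other 6 came from rats suspended for 1, 3 or 7 days (HS1, HS3 and HS7, with 2 libraries each) and are used only to show where HS14 differs from them.

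Hindlimb suspension lifts the hind limbs from the cage floor, so that the soleus, a postural muscle rich in slow fibres, no longer carries the weight of the body. Muscle regrows from satellite cells, which lie between the fibre and its basement membrane, divide as myoblasts and fuse into multinucleated fibres. Fibro-adipogenic progenitors, fibroblasts, endothelial cells and pericytes lie around the fibres and supply matrix and growth factors. The matrix that these cells lay down and the BMP, Wnt, Notch and growth factor signals between them are known to hold myoblasts in division or to let them differentiate.

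All rats, suspended or not, were 3-month-old males of the Wistar strain, and the controls stayed in ordinary cages. The muscles of both hindlimbs were digested with collagenase, fast-adhering cells were removed by pre-plating, and the remaining cells were grown to a subconfluent state on a basement membrane extract. The RNA is therefore that of cells that had left the unloaded muscle and grown in a dish, and a culture is a pool of cells rather than a clone. Neither the labels nor the methods tell if both libraries of a group stem from separate animals, so p-values measure only the spread between these libraries, which may be technical.

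Polyadenylated RNA was sequenced, and the authors counted reads per gene. The 4 libraries held between 23195342 and 28175200 counts, and 15723 to 15918 genes were detected with 1 count or more. Levels are given below in CPM, the count of a gene divided by the library's total and multiplied by 1000000, which does not correct for gene length and is compared only within a gene. A level of 3 counts, taken as the detection floor, was between 0.107 and 0.129 CPM in these libraries. The biological coefficient of variation, the spread between libraries beyond the counting error of independent reads, was 4.29% in Control and 5.44% in HS14. Symbols were known only for genes that the study had listed for at least 1 time point, because the annotation at hand did not pair the Ensembl identifiers with names. Of 770 such symbols, 747 were tested here. Most defining markers of satellite cells and myoblasts, such as *Pax7*, *Myf5* and *Des*, had no symbol and were not analysed here, but the myoblast fusion genes *Mymk* and *Mymx* and the myogenic factor *Myog* were present in all 4 libraries.

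Differentially expressed genes (DEGs) were genes whose log2 fold change (HS14 minus Control) lay beyond 1.5 in either direction and whose adjusted p was below 0.01. Except where DESeq2 is named, adjusted p-values come from the quasi-likelihood test of edgeR, adjusted by the Benjamini-Hochberg method over all genes tested. Those named as DESeq2 come from its Wald test. Of 13160 genes tested, 265 were downregulated DEGs in HS14 (2.01%) and 69 were upregulated (0.524%). Without the fold threshold, 2240 genes were lower (17.0%) and 2085 higher (15.8%), and the median log2 fold change over all genes was -0.001. The downregulated DEGs included genes at high levels. Their median level was 4.46 CPM in Control and 1.05 CPM in HS14, and 94 of them reached a mean of 10 CPM in Control. Together they made up about 17880 and 18610 CPM in the Control libraries and 5975 and 5603 CPM in the HS14 libraries. The upregulated DEGs were mostly at low levels, with a median of 0.310 CPM in Control and 1.46 CPM in HS14. Only *Atp2a3* and *Gli1* among them reached a mean of 10 CPM in HS14, and *Gli1* fell short of the fold threshold without HS14 replicate 1 (log2 fold change 1.29). The number of upregulated DEGs depended on the tool and the filter. DESeq2 on the same 4 libraries called 35, and a filter of 1 CPM in 2 libraries left 42.

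**Figure D1:**
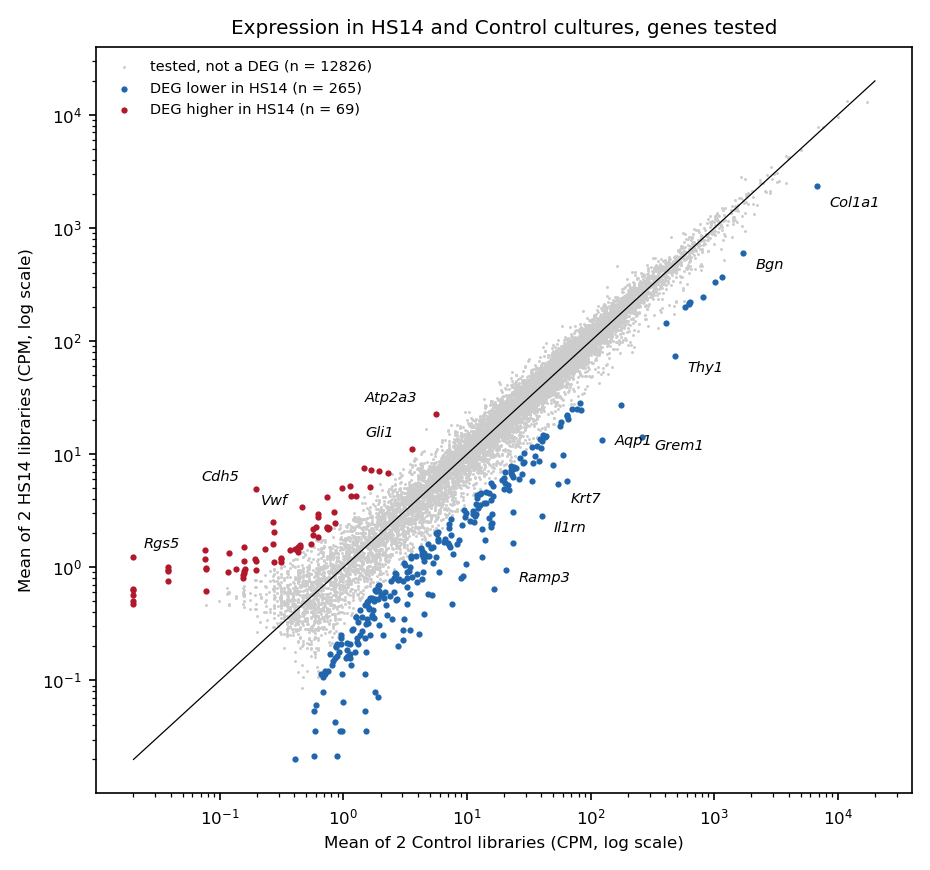
Mean level in the 2 HS14 libraries (y axis) against the mean in the 2 Control libraries (x axis), both in CPM on log scales, for each of the 13160 genes tested, with equality as the black line and a mean of 0 drawn at the edge. The 265 downregulated DEGs (blue) reach down from the highest expressed genes such as *Col1a1*, and the 69 upregulated DEGs (red) lie mostly at low levels, with *Atp2a3* and *Gli1* alone above 10 CPM in HS14.

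A symbol was known for 214 of the 265 downregulated and 37 of the 69 upregulated DEGs. They were grouped by 23 lists of genes, described below by their counts. Because the study chose these symbols on the same libraries, the counts are not independent evidence of a direction. Genes that the study listed for HS14 were nearly all DEGs here by construction. For most lists, counts are also given for members that it listed only for another time point. These members are a selected set as well. They leave out the genes that the study called for HS14, which keeps large changes out, so their counts are no independent evidence either. Among the 747 tested genes with a symbol, 214 were downregulated and 37 upregulated DEGs. Lower calls thus prevail in the pool from which all lists were drawn, and the list counts are to be read beside it. At an adjusted p of 0.01, lower genes outnumbered higher ones in 20 of the lists, and the endothelial markers, the Notch genes and the satellite cell markers were the exceptions.

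**Figure D2:**
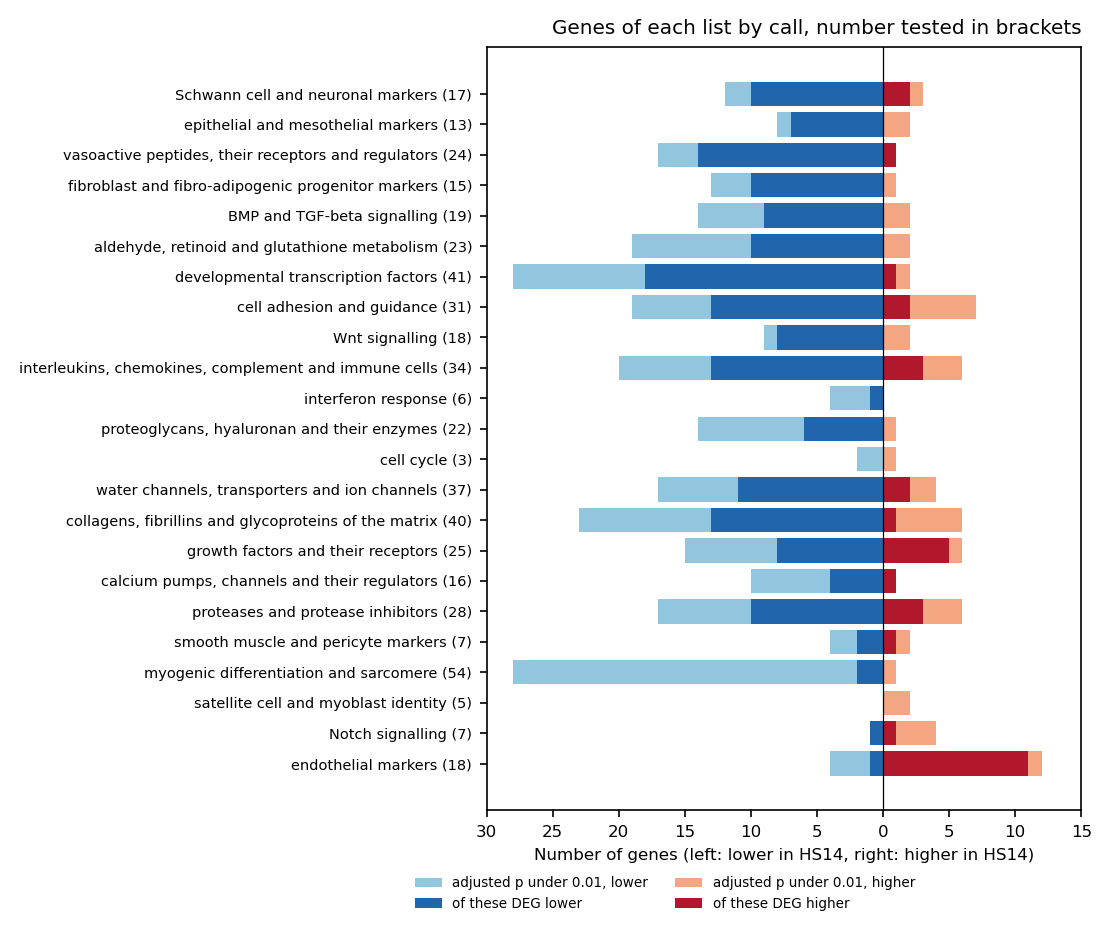
Number of genes per list (x axis, genes) that were lower in HS14 (to the left) or higher (to the right), with those past an adjusted p of 0.01 in light colours and the DEGs among them in dark colours, ordered by the median log2 fold change of the list. The endothelial list stands out with 11 upregulated DEGs, and the myogenic and sarcomere list has 28 lower genes of which 2 are DEGs.

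Structural proteins of the extracellular matrix were mostly lower in HS14. Of 40 tested collagens, fibrillins and matrix glycoproteins, 23 were lower and 6 higher at an adjusted p of 0.01, with 13 downregulated DEGs and 1 upregulated (median log2 fold change -0.99). Without HS14 replicate 2, 8 were downregulated DEGs. Among the 26 members listed only for another time point, 10 were lower, 5 were higher and 11 did not pass (median -0.37). *Col1a1* (ENSRNOG00000003897), a chain of the main fibrillar collagen, stood at 6576 and 7042 CPM in Control and 2467 and 2262 CPM in HS14, so that the log2 fold change was -1.56 with a standard error of 0.04 and an adjusted p of 1.93e-28. Fibrillin-1 (*Fbn1*), the core of microfibrils that store TGF-beta, fell from 995 and 1032 to 352 and 314 CPM (-1.64, standard error 0.05). *Ltbp2*, a microfibril-associated latent TGF-beta binding protein, fell from 1136 and 1168 to 370 and 366 CPM (-1.68, standard error 0.04). The libraries of both groups did not overlap for these genes, as for 32.3% of all genes in the downward direction and 38.9% in the upward direction. The microfibril protein *Mfap5* fell from 59.5 and 60.2 to 9.48 and 10.1 CPM (-2.65, standard error 0.10). The collagen cross-linking enzyme *Loxl3* went from 74.1 and 81.6 to 26.3 and 23.9 CPM (-1.66), and *Ccn5*, a matricellular protein of the CCN family, from 13.9 and 11.8 to 3.58 and 3.49 CPM (-1.89). Collagen VI was not uniform. Its chain *Col6a1* fell from 562 and 589 to 213 and 188 CPM (-1.55), whereas *Col6a3* had 914 and 965 CPM in Control and 1006 and 811 CPM in HS14, so that the groups overlapped (adjusted p = 0.632, or 5.52e-07 without HS14 replicate 1). Tenascin-N (*Tnn*) also overlapped between the groups, at 24.5 and 27.5 CPM in Control and 28.1 and 20.8 CPM in HS14. The only upregulated DEG of the list was *Sparcl1*, a SPARC-related matricellular protein, at 1.03 and 1.49 CPM in Control and 4.22 and 4.27 CPM in HS14 (1.71, standard error 0.29, adjusted p = 6.61e-06). Its log2 fold change was 1.48 without Control replicate 1.

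Small leucine-rich proteoglycans, which bind collagen fibrils and growth factors, moved in opposite directions. Decorin (*Dcn*) was at 166 and 161 CPM in Control and 451 and 465 CPM in HS14, a rise of 1.45 on the log2 scale (standard error 0.05, adjusted p = 2.77e-25), just short of the fold threshold for a DEG. Biglycan (*Bgn*) fell from 1673 and 1741 to 621 and 588 CPM (-1.53, standard error 0.04), and *Prelp*, which anchors basement membranes to the connective tissue, from 174 and 176 to 27.0 and 27.0 CPM (-2.73, standard error 0.07). Lumican (*Lum*) was at 7.24 and 6.71 CPM in Control and 9.48 and 10.0 CPM in HS14 and did not pass (adjusted p = 0.0208). Over the 22 proteoglycan and hyaluronan genes tested, 14 were lower and 1, *Dcn*, was higher (median -1.05), and of the 16 listed only for another time point 8 were lower. *Esm1*, a secreted dermatan sulphate proteoglycan, fell from 66.2 and 63.1 to 5.08 and 6.55 CPM (-3.52), the hyaluronan receptor *Layn* from 48.3 and 50.5 to 7.42 and 8.62 CPM (-2.66), and the heparan sulphate sulphatase *Sulf2* from 22.6 and 20.7 to 5.18 and 5.52 CPM (-2.05). *Hpse*, which cleaves heparan sulphate, and *Cemip*, which degrades hyaluronan, did not pass. In a bulk culture, fewer cells of a type and less RNA per cell cannot be told apart, and this holds for every gene below.

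Proteases and their inhibitors were split. Of 28 tested, 17 were lower and 6 higher (10 and 3 DEGs, median -0.78). Of the 15 listed only for another time point, 8 were lower and 2 higher. *Timp3*, an inhibitor of matrix metalloproteinases that is held in the matrix, rose from 1.47 and 1.49 to 6.99 and 7.98 CPM (2.30, standard error 0.24, adjusted p = 1.99e-10), and the serine protease inhibitor *Slpi* from 0.597 and 0.534 to 2.06 and 2.33 CPM (1.91). Cystatin M (*Cst6*), an inhibitor of cysteine proteases, fell from 29.2 and 28.1 to 6.74 and 9.83 CPM (-1.83), and the complement protease *Masp1* from 11.0 and 11.2 to 3.19 and 3.15 CPM (-1.84). *Wfdc1*, a secreted protein with a whey acidic protein domain, fell from 9.86 and 9.84 to 2.66 and 3.36 CPM (-1.75). *Adamtsl2*, at 4.97 and 4.27 CPM in Control and 5.15 and 5.69 CPM in HS14, did not pass.

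Genes of BMP and TGF-beta signalling were mostly lower. *Grem1* (ENSRNOG00000026053), which encodes gremlin 1 and binds BMP ligands outside the cell, stood at 263 and 257 CPM in Control and 12.8 and 15.4 CPM in HS14, 18.9-fold lower (log2 fold change -4.24, standard error 0.07, adjusted p = 3.44e-35). The ligand *Bmp2* fell from 22.6 and 23.2 to 6.92 and 6.60 CPM (-1.79, standard error 0.13). Of 19 tested genes of BMP and TGF-beta signalling, 14 were lower, 9 of them DEGs, and 2 were higher (median -1.5). The 2 were *Tgfb2*, a TGF-beta ligand, from 192 and 192 to 254 and 247 CPM (0.35), and *Fstl3* (0.35, adjusted p = 0.0077). *Fstl3* did not pass without Control replicate 2 (adjusted p = 0.187) or HS14 replicate 2 (0.0275), with the replicate number as a block (0.0143), with all 10 libraries (0.0236) or with DESeq2 (0.0554 on 4 and 0.0347 on 10 libraries). Of the 10 members listed only for another time point, 5 were lower and 2 higher. The receptor *Acvrl1*, which binds BMP9, went from 27.4 and 30.9 to 11.6 and 8.67 CPM (-1.55). The ligand *Bmp6*, at 2.94 and 3.58 CPM in Control and 4.15 and 4.35 CPM in HS14, and the inhibin subunit *Inha*, at 1.19 and 2.02 CPM in Control and 1.21 and 1.38 CPM in HS14, did not pass.

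Among Wnt genes, 9 of 18 were lower, 8 of them DEGs, and 2 were higher (median -1.15). Of the 10 listed only for another time point, 1 was lower, 2 were higher and 7 did not pass. The antagonist-family member *Dkk3* fell from 35.0 and 32.4 to 5.96 and 5.69 CPM (-2.56, standard error 0.12), and *Nkd2*, which damps the signal inside the cell, from 9.71 and 13.3 to 2.84 and 2.89 CPM (-2.04). The receptor *Ror2* fell from 22.4 and 24.2 to 6.67 and 6.47 CPM (-1.86) and the ligand *Wnt4* from 37.0 and 41.5 to 13.6 and 13.9 CPM (-1.55). *Wnt5a*, a ligand of *Ror2*, fell by less, from 96.2 and 92.4 to 59.4 and 49.0 CPM (-0.83). The secreted inhibitor *Wif1* went the other way, from 4.65 and 3.81 to 12.1 and 8.19 CPM (1.23, standard error 0.19, adjusted p = 1.03e-06). *Lrp4* and *Wnt11* did not pass.

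Growth factors and their receptors were more often lower than higher. Of 25 tested, 15 were lower and 6 higher, with 8 and 5 DEGs (median -0.93). Without Control replicate 1 or HS14 replicate 1, 3 were upregulated DEGs. Of the 12 listed only for another time point, 7 were lower and 1 was higher. *Fgf10*, a mesenchymal growth factor, fell from 14.4 and 13.7 to 1.42 and 2.07 CPM (-3.06, standard error 0.20). Neuregulin 1 (*Nrg1*), which signals to Schwann cells and to muscle, fell from 13.2 and 13.3 to 2.13 and 2.20 CPM (-2.65, standard error 0.18). *Gas1*, a co-receptor for hedgehog and GDNF-family ligands, fell from 18.1 and 13.5 to 2.31 and 2.5 CPM (-2.75), and *Igfbp4*, which binds insulin-like growth factors, from 85.8 and 82.5 to 27.8 and 21.0 CPM (-1.81). *Gli1*, a transcription factor and target of hedgehog signalling, rose from 3.70 and 3.43 to 13.2 and 8.92 CPM (1.61, standard error 0.19, adjusted p = 4.74e-09). Without HS14 replicate 1 its log2 fold change was 1.29, below the threshold for a DEG. *Vegfd*, a ligand of endothelial VEGF receptors, fell from 66.9 and 65.0 to 22.6 and 18.7 CPM (-1.70), while *Pdgfb*, which recruits pericytes, rose from 0.716 and 1.22 to 5.54 and 4.44 CPM (2.33). The neurotrophin receptor *Ngfr* rose from 0.716 and 0.762 to 4.54 and 3.79 CPM (2.46). The receptor tyrosine kinase *Kit* had 0 counts in both Control libraries and 14 and 12 counts in HS14, at least 8.67-fold higher against a floor of 3 counts over the group, or 4.33-fold if each read pair was counted as 2, and its adjusted p of 0.000549 became 0.0123 or 0.0181 without Control replicate 1 or 2. The fibroblast growth factor receptor *Fgfr4*, which myoblasts express, rose from 67.0 and 68.9 to 136 and 129 CPM (0.93, standard error 0.06). *Igf1*, *Kdr* and *Erbb3* did not pass.

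Notch signalling, which keeps satellite cells undifferentiated, was represented by 7 genes, and 4 of them were higher and 1 lower (median 0.86). Of the 5 listed only for another time point, 3 were higher and 0 lower. The receptor *Notch3* had 29.8 and 33.5 CPM in Control and 80.8 and 57.9 CPM in HS14 (1.10, standard error 0.16, adjusted p = 0.00105), and its target *Heyl* rose from 51.5 and 47.9 to 103 and 81.8 CPM (0.86, standard error 0.08). Both had a higher value in HS14 replicate 1 than in replicate 2. The target *Hey2* rose from 0.597 and 0.610 to 2.34 and 2.24 CPM (1.89). *Dlk1*, a non-canonical Notch ligand, fell from 9.47 and 8.46 to 0.923 and 0.690 CPM (-3.48, standard error 0.25). *Notch1*, at 7.56 and 6.56 CPM in Control and 10.6 and 7.59 CPM in HS14, did not pass with all 4 libraries but did without HS14 replicate 2 (log2 fold change 0.55). The ligand *Dll1* did not pass.

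Transcription factors of limb, skeletal and smooth muscle development were mostly lower. Of 41 tested, 28 were lower and 2 higher (18 and 1 DEGs, median -1.35), and of the 23 listed only for another time point 11 were lower, 1 was higher and 11 did not pass. *Myocd*, the master coactivator of smooth muscle genes, fell from 9.94 and 8.77 to 0.852 and 0.819 CPM (-3.51, standard error 0.25). *Osr1*, which marks fibro-adipogenic progenitors and their embryonic source, fell from 6.52 and 8.77 to 1.14 and 1.47 CPM (-2.60), and the forkhead factor *Foxq1* from 16.8 and 13.4 to 2.24 and 3.19 CPM (-2.52). Other mesenchymal factors fell in both HS14 libraries, with *Foxc2* at -2.31, *Shox2* at -1.96, *Ebf2* at -1.81, *Nr2f2* at -1.76 and *Twist2* at -1.57 on the log2 scale. *Sox11*, a factor of immature cells, rose from 25.9 and 23.2 to 41.8 and 43.1 CPM (0.76, standard error 0.09). The upregulated DEG was *Gli1*. *Sim2* and *Sox8* did not pass.

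The calcium pump gene *Atp2a3* (ENSRNOG00000017912), which encodes SERCA3 and returns calcium to the endoplasmic reticulum, was 1 of the 2 upregulated DEGs with a mean above 10 CPM in HS14. It had 5.65 and 5.49 CPM in Control and 22.0 and 23.2 CPM in HS14, 3.96-fold higher (log2 fold change 1.99, standard error 0.13, adjusted p = 1.07e-15). Small proteins that inhibit related calcium pumps of muscle fell, and their effect on SERCA3 was not tested. Sarcolipin (*Sln*) went from 20.2 and 20.5 to 6.21 and 4.87 CPM (-1.90, standard error 0.14) and phospholamban (*Pln*) from 2.94 and 3.20 to 1.14 and 1.03 CPM (-1.53, standard error 0.33). *Atp2a3* was the only one of 16 tested calcium genes that was higher, whereas 10 were lower, 4 of them DEGs (median -0.84). Of the 11 listed only for another time point, 6 were lower and 0 higher. The T-type channel *Cacna1g* fell from 6.24 and 8.73 to 2.17 and 1.72 CPM (-1.97) and the calcium-binding protein *Cib2* from 4.69 and 3.93 to 1.21 and 1.42 CPM (-1.75). Of the sarcoplasmic reticulum proteins, calsequestrin 2 (*Casq2*) fell from 31.1 and 28.2 to 16.8 and 16.6 CPM (-0.86) and the release channel *Ryr1* from 29.4 and 33.9 to 19.4 and 16.3 CPM (-0.85). *Hrc* (-1.09), *Cacna1c* (-0.83), *Cacnb1* (-0.47) and *Srl* (-0.25) also passed, and *Cacna1s*, *Cacna1b*, *Cacng6*, *Stac3* and *Ryr3* did not. With all 10 libraries in the fit, which then share a larger spread, 6 of the 10 were lower. *Casq2*, *Ryr1*, *Cacnb1* and *Srl* no longer passed (adjusted p = 0.104, 0.0745, 0.183 and 0.512). Some calls also rested on 1 library. *Cacna1c* did not pass without HS14 replicate 2 (adjusted p = 0.0126), *Cacnb1* without Control replicate 2 (0.065), *Hrc* without Control replicate 1 (0.0124), and *Srl* without Control replicate 1 (0.0156) or HS14 replicate 2 (0.0838).

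**Figure D3:**
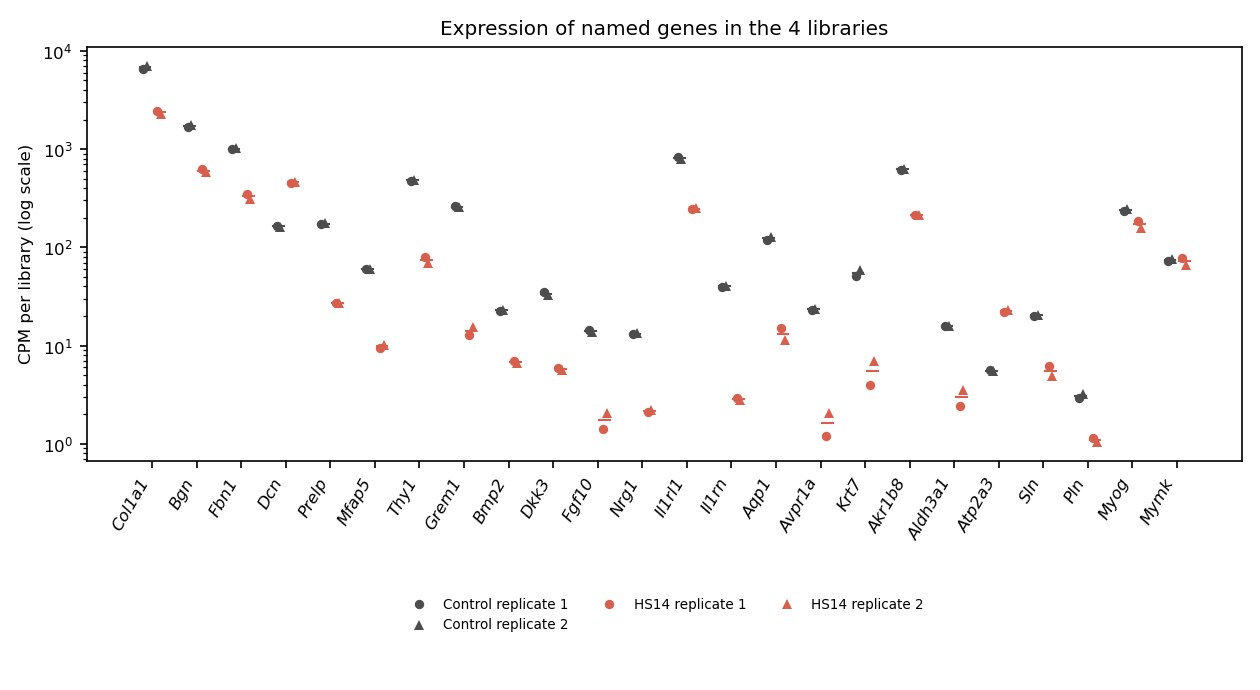
Level of 24 named genes in each library (y axis, CPM on a log scale), with Control in grey, HS14 in red, replicate 1 as circles, replicate 2 as triangles and group means as bars. The 2 libraries of a group lie close together, *Dcn* and *Atp2a3* are higher in both HS14 libraries, and *Mymk* overlaps between the groups.

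Genes of myogenic differentiation and the sarcomere were lower by smaller amounts. Of 54 tested, 28 were lower and 1 was higher at an adjusted p of 0.01, 25 did not pass, and 2 were DEGs (median -0.57, range -1.83 to 0.38). There was 1 DEG without Control replicate 2 or HS14 replicate 2 and with the replicate number as a block, and the number of higher genes was 0 to 2 with 1 library left out. Nearly all of this list, 52 genes, was listed only for another time point. With all 10 libraries in the fit 4 of these genes were lower, and DESeq2 on all 10 libraries left 10. *Myog*, the factor that starts terminal differentiation, had 235 and 245 CPM in Control and 187 and 157 CPM in HS14 (-0.51, standard error 0.06, adjusted p = 4.93e-09, or 0.0122 with all 10 libraries). Embryonic myosin heavy chain (*Myh3*) went from 311 and 338 to 176 and 163 CPM (-0.97, adjusted p = 2.34e-18, or 0.0516 with all 10 libraries), and its counts are uncertain where reads are shared with similar myosin genes. The fusion proteins did not pass. *Mymk* (myomaker) had 73.2 and 75.5 CPM in Control and 78.4 and 66.8 CPM in HS14 (adjusted p = 0.468), and *Mymx* (myomixer) had 7.83 and 9.07 CPM in Control and 7.77 and 5.73 CPM in HS14 (adjusted p = 0.099). Genes of slow fibres gave different results. Slow troponin T (*Tnnt1*) fell from 18.8 and 17.6 to 11.6 and 12.2 CPM (-0.65), while slow myosin heavy chain (*Myh7*) stood at 3.30 and 3.35 CPM in Control and 3.94 and 4.31 CPM in HS14 (adjusted p = 0.362). Muscle creatine kinase (*Ckm*) fell from 7.52 and 8.54 to 3.02 and 5.17 CPM (-1.02, adjusted p = 8.50e-05, or 0.159 with all 10 libraries), myoglobin (*Mb*) did not pass, and nebulin (*Neb*) had 171 and 186 CPM in Control and 209 and 179.8 CPM in HS14 (adjusted p = 0.215, or 0.00404 and higher in HS14 without HS14 replicate 2). The small heat shock protein *Hspb7*, 1 of the 2 DEGs, had 55.9 and 57.2 CPM in Control and 17.5 and 17.9 CPM in HS14 (-1.71, standard error 0.09). Of the 15 identity markers of satellite cells and myoblasts, 5 had a symbol, all listed only for another time point. *Fgfr4* and *Heyl* were higher and *Msc*, *Dll1* and *Erbb3* did not pass (median 0.62). The median was the value of *Msc*, and it was 0.23 without HS14 replicate 1 and 0.91 without HS14 replicate 2, where *Msc* passed (adjusted p = 0.000208). Their summed level was 140.8 and 137.7 CPM in Control and 266 and 233 CPM in HS14.

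Receptors and peptides that regulate vessel tone and fluid were mostly lower. Of 24 tested, 17 were lower and 1 was higher (14 and 1 DEGs, median -1.60), and of the 9 listed only for another time point 3 were lower and 6 did not pass. *Ramp3*, a partner of the adrenomedullin receptor, fell from 19.3 and 22.1 to 1.56 and 0.345 CPM (-4.39, standard error 0.29, adjusted p = 1.64e-08). Its HS14 libraries differed, and the change was -5.92 without HS14 replicate 1 and -3.76 without HS14 replicate 2. The peptide adrenomedullin (*Adm*) fell as well, from 11.6 and 12.1 to 2.7 and 3.28 CPM (-2.03). The vasopressin receptor *Avpr1a* fell from 23.0 and 23.8 to 1.21 and 2.07 CPM (-3.90, standard error 0.18), and *Rgs17*, which shortens G protein signals, from 5.17 and 6.63 to 0.923 and 0.905 CPM (-2.72). The bradykinin receptor *Bdkrb2* (-1.66), the prostacyclin receptor *Ptgir* (-1.54), the serotonin receptor *Htr2a* (-1.55) and the lysophosphatidic acid receptor *Lpar3* (-2.11) were lower. The endothelin receptor *Ednra* did not pass with all 4 libraries, with 5.17 and 3.13 CPM in Control and 6.78 and 5.69 CPM in HS14, but it passed without Control replicate 1 (log2 fold change 0.97).

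Water channels, transporters and ion channels were lower in 17 of 37 and higher in 4 (11 and 2 DEGs, median -1.0), and of the 25 listed only for another time point 6 were lower, 3 higher and 16 did not pass. Leaving out any 1 of the 4 libraries gave 2 higher genes in place of 4, as did DESeq2. The water channel *Aqp1* fell from 119 and 128 to 15.2 and 11.4 CPM (-3.24, standard error 0.09, adjusted p = 8.34e-28) and *Aqp8* from 14.9 and 17.0 to 2.88 and 2.03 CPM (-2.72). The chloride channel bestrophin 1 (*Best1*) fell from 9.54 and 5.72 to 0.781 and 0.172 CPM (-3.95), a change that was -5.46 without HS14 replicate 1 and -3.31 without HS14 replicate 2, and the glutamate receptor subunit *Gria3* from 7.79 and 8.77 to 1.46 and 1.77 CPM (-2.40). The lactate exporter *Slc16a3* fell from 34.8 and 39.4 to 12.3 and 11.4 CPM (-1.67). The equilibrative monoamine and nucleoside transporter *Slc29a4* rose from 1.27 and 2.06 to 6.88 and 7.54 CPM (2.07, standard error 0.24). The related transporter *Slc29a1*, at 71.2 and 70.7 CPM in Control and 74.3 and 67.8 CPM in HS14, did not pass.

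Genes of interleukin signalling and immune cells were mostly lower. Of 34 tested genes of interleukins, chemokines, complement and immune cells, 20 were lower and 6 higher (13 and 3 DEGs, median -1.11), and of the 19 listed only for another time point 7 were lower, 4 higher and 8 did not pass. Without Control replicate 2 or HS14 replicate 1, 2 in place of 6 were higher and 1 was an upregulated DEG, and DESeq2 on 4 libraries gave the same numbers. The interleukin 1 receptor antagonist *Il1rn* fell from 39.9 and 40.4 to 2.91 and 2.80 CPM, 14.3-fold (log2 fold change -3.84, standard error 0.13, adjusted p = 2.77e-25). *Il1rl1*, the receptor of interleukin 33, fell from 823 and 790.2 to 246 and 249 CPM (-1.74, standard error 0.05), and its ligand *Il33* from 26.3 and 22.7 to 13.2 and 10.1 CPM (-1.10). The receptors *Il1rl2* and *Il11ra1* changed by -2.07 and -1.93. *Il11*, the ligand of the latter, rose from 1.27 and 0.991 to 5.96 and 4.53 CPM (2.18, standard error 0.28, adjusted p = 3.38e-08). Arginase 1 (*Arg1*) fell from 7.76 and 6.79 to 1.56 and 1.47 CPM (-2.29), and the chemokine scavenger *Ackr4* from 10.9 and 10.3 to 2.45 and 2.67 CPM (-2.09). The chemokine *Cxcl3* and the leukocyte sialoprotein *Spn* did not pass with all 4 libraries, and *Spn* passed without HS14 replicate 2 (log2 fold change 0.26). Only 6 interferon response genes had a symbol, and 4 of them were lower, with 1 DEG, or 2 without HS14 replicate 1 or 2. *Usp18*, a brake on interferon signalling, fell from 9.11 and 9.03 to 2.34 and 2.41 CPM (-1.96), and *Ifitm3*, whose counts may be shared with similar genes, from 111 and 119 to 63.8 and 54.4 CPM (-0.99). *Gbp4* and *Cmpk2* did not pass.

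Enzymes of aldehyde, retinoid and glutathione metabolism were lower in 19 of 23 tested and higher in 2 (10 and 0 DEGs, median -1.42). Of the 13 listed only for another time point, 9 were lower, 2 higher and 2 did not pass (median -0.84). Leaving out any 1 of the 4 libraries gave 1 higher gene in place of 2. Glutathione peroxidase 3 (*Gpx3*) fell from 631 and 639.7 to 228 and 216 CPM (-1.55, standard error 0.05). The aldose reductase relative *Akr1b8*, whose counts may be shared with similar genes, fell from 619 and 627 to 212 and 211 CPM (-1.59, standard error 0.05). The aldehyde dehydrogenase *Aldh3a1* fell from 15.8 and 15.8 to 2.41 and 3.54 CPM (-2.46, standard error 0.17), and *Dpep1*, which cleaves leukotriene and glutathione conjugates, from 8.83 and 10.8 to 0.710 and 1.42 CPM (-3.27). Of the retinoid genes, the binding protein *Crabp1* (-2.23), the retinol-oxidising *Adh7* (-1.59) and the retinoic acid-degrading *Cyp26b1* (-1.42) were lower. *Cyp1b1*, which oxidises steroids and xenobiotics, fell from 364 and 339.6 to 126 and 135 CPM (-1.46). *Ggt7* and *Osgin1* did not pass.

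Adhesion and guidance molecules were lower in 19 of 31 and higher in 7 (13 and 2 DEGs, median -1.25), and of the 16 listed only for another time point 6 were lower, 5 higher and 5 did not pass (median 0.21). Without HS14 replicate 1, or with DESeq2, 4 in place of 7 were higher. *Thy1* (CD90), a surface glycoprotein of fibroblasts, had 475 and 488 CPM in Control and 79.8 and 69.0 CPM in HS14, 6.61-fold lower (log2 fold change -2.72, standard error 0.06, adjusted p = 4.64e-32). The neural adhesion molecules *Ntm* and *Cntn2* changed by -2.81 and -1.83, the guidance ligand *Slit3* by -1.97 and the mesenchymal cadherin *Cdh11* by -1.57. Integrin alpha 8 (*Itga8*) rose from 32.1 and 30.3 to 73.2 and 60.9 CPM (1.07, standard error 0.08).

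Markers of fibroblasts and fibro-adipogenic progenitors were lower in 13 of 15, 10 of them DEGs, and 1 (*Dcn*) was higher (median -1.57). Of the 5 listed only for another time point, 3 were lower and 1 was higher. The summed level of all 15 was 10190 and 10770 CPM in Control and 4078 and 3802 CPM in HS14, and *Col1a1* made up most of it. The 5 listed only for another time point, with *Dcn* among them, summed to 333 and 328 CPM in Control and 527 and 538 CPM in HS14. In any of the 4 libraries, 0 of the 15 markers were at 0 counts. The receptor *Pdgfra*, a defining marker of these progenitors, fell from 147 and 149 to 60.6 and 58.7 CPM (-1.35, standard error 0.06), and *Islr* from 28.4 and 27.8 to 6.99 and 6.38 CPM (-2.10). This list shares *Col1a1*, *Fbn1*, *Mfap5*, *Bgn*, *Dcn*, *Lum*, *Dpt* and *Fmod* with the matrix and proteoglycan lists. The study's pre-plating step removes adherent cells of this kind, and the part of such cells in the falls of matrix, BMP, Wnt and growth factor genes was not tested. Epithelial and mesothelial markers were lower in 8 of 13 and higher in 2 (7 and 0 DEGs, median -1.65). Of the 6 listed only for another time point, 1 was lower, 2 were higher and 3 did not pass (median 0.50). The whole list summed to 152 and 159 CPM in Control and 75.8 and 72.0 CPM in HS14, and *Krt79* alone was at 0 counts in a library. The 2 higher genes were 0 without HS14 replicate 1 and with DESeq2, and 1 without any other library. Keratin 7 (*Krt7*) fell from 51.4 and 58.2 to 3.98 and 6.98 CPM (-3.38, standard error 0.16) and mesothelin (*Msln*) from 25.8 and 26.9 to 5.61 and 6.51 CPM (-2.16), while the epithelial factor *Tp63* and the mesothelial *Wt1* did not pass. Schwann cell and neuronal markers were lower in 12 of 17 and higher in 3 (10 and 2 DEGs, median -1.66). Of the 6 listed only for another time point, 3 were lower, 1 was higher and 2 did not pass (median -0.26). The whole list summed to 376 and 374 CPM in Control and 209 and 194 CPM in HS14. The glial calcium-binding protein *S100b* fell from 15.3 and 13.3 to 4.44 and 4.87 CPM (-1.66) and the neuronal hydrolase *Uchl1* from 82.2 and 82.1 to 29.2 and 27.1 CPM (-1.58). Synuclein gamma (*Sncg*) changed by -2.16, the axonal transport factor *Fez1* by -2.36 and the pentraxin *Nptx1* by -1.67. *Dcx* did not pass, and *Ptprz1*, a receptor phosphatase of glia, rose from 0.875 and 0.80 to 2.84 and 3.28 CPM (1.83).

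Endothelial markers were the list with the most upregulated DEGs, 11 of 18 tested, and 1, *Acvrl1*, was a downregulated DEG (median 2.35), though not without Control replicate 2 (-1.46) or HS14 replicate 2 (-1.36). At an adjusted p of 0.01, 12 were higher and 4 lower. Of the 6 listed only for another time point, 1 was higher and 3 were lower (median -0.75), and 11 of the 12 higher genes were ones that the study had listed for HS14. Those that rose were at low levels. VE-cadherin (*Cdh5*, ENSRNOG00000013324), which joins endothelial cells, had 0.239 and 0.152 CPM in Control and 5.29 and 4.53 CPM in HS14 (4.59, standard error 0.40, adjusted p = 2.55e-12). This rests on 6 and 4 counts in Control against 149 and 105 in HS14. The angiopoietin co-receptor *Tie1* rose from 0.318 and 0.610 to 3.69 and 3.19 CPM (2.84), von Willebrand factor (*Vwf*) from 0.0795 and 0.457 to 2.63 and 2.41 CPM (3.16) and endothelial nitric oxide synthase (*Nos3*) from 0.159 and 0.381 to 1.35 and 1.85 CPM (2.5). Endomucin (*Emcn*) and *Fgd5* had 0 and 2 counts in the Control libraries. *Emcn* had 30 and 18 counts in HS14 and *Fgd5* 24 and 24. For both genes the ratio of summed counts, scaled by the total counts of each group, was 24.0 (exact 95% interval 6.29 to 204, for counting error only). The interval would be wider if each read pair was counted as 2. *Adgrl4* (2.86), *Adgrf5* (2.21), *Esam* (0 and 4 counts in Control, 38 and 35 in HS14) and *Podxl* (1.87) also rose. The size of these rises depended on the few Control counts. Without Control replicate 2 the log2 fold change was 7.56 for *Emcn*, 7.58 for *Fgd5*, 8.18 for *Esam*, 4.87 for *Vwf* and 3.25 for *Nos3*. Without Control replicate 1 it was 3.49 for *Emcn*, 3.51 for *Fgd5*, 3.15 for *Esam*, 2.42 for *Vwf*, 3.68 for *Adgrl4* and 2.78 for *Podxl*, and all of these stayed past the test. *Kdr* and *Tmem204* did not pass, and *Pecam1*, 1 of the 19 markers listed, had no symbol and was not analysed. The same list held 4 lower genes. Endoglin (*Eng*), a TGF-beta co-receptor, fell from 92.7 and 99.8 to 49.6 and 48.6 CPM (-1.0), thrombomodulin (*Thbd*) from 18.8 and 19.2 to 8.38 and 8.45 CPM (-1.21), and *Acvrl1* and *Flt4* fell with them. The sum of the whole list in CPM, to which these 4 genes contributed much, was 154 and 167 CPM in Control and 108 and 101 CPM in HS14. The list does not hold every gene expressed by endothelial cells. *Esm1*, named for its endothelial expression, and the water channel *Aqp1* were counted in other lists and fell (-3.52 and -3.24).

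Pericyte and smooth muscle markers did not move together. *Rgs5*, a regulator of G protein signalling that marks pericytes, had 0 counts in both Control libraries and 37 and 27 in HS14, at least 21.3-fold higher against a floor of 3 counts over the group, or 10.7-fold if each read pair was counted as 2 (adjusted p = 8.71e-07). *Notch3* rose as given above, the platelet-derived growth factor receptor *Pdgfrb* fell from 172 and 165 to 105 and 98.2 CPM (-0.76), *Myocd* fell, and *Ppp1r14a*, an inhibitor of myosin phosphatase, fell from 2.94 and 3.58 to 1.14 and 0.216 CPM (-2.23, or -3.92 and -1.55 without HS14 replicate 1 or 2). Of the 12 markers listed, 7 had a symbol and were tested, and the others, *Acta2* among them, were not analysed. Of the 7 tested, 2 were higher and 4 lower, and of the 4 listed only for another time point 1 was higher and 2 were lower. The summed level of all 7 was 225 and 219 CPM in Control and 198 and 167 CPM in HS14. Whether the endothelial transcripts came from more such cells in the dishes was not tested.

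**Figure D4:**
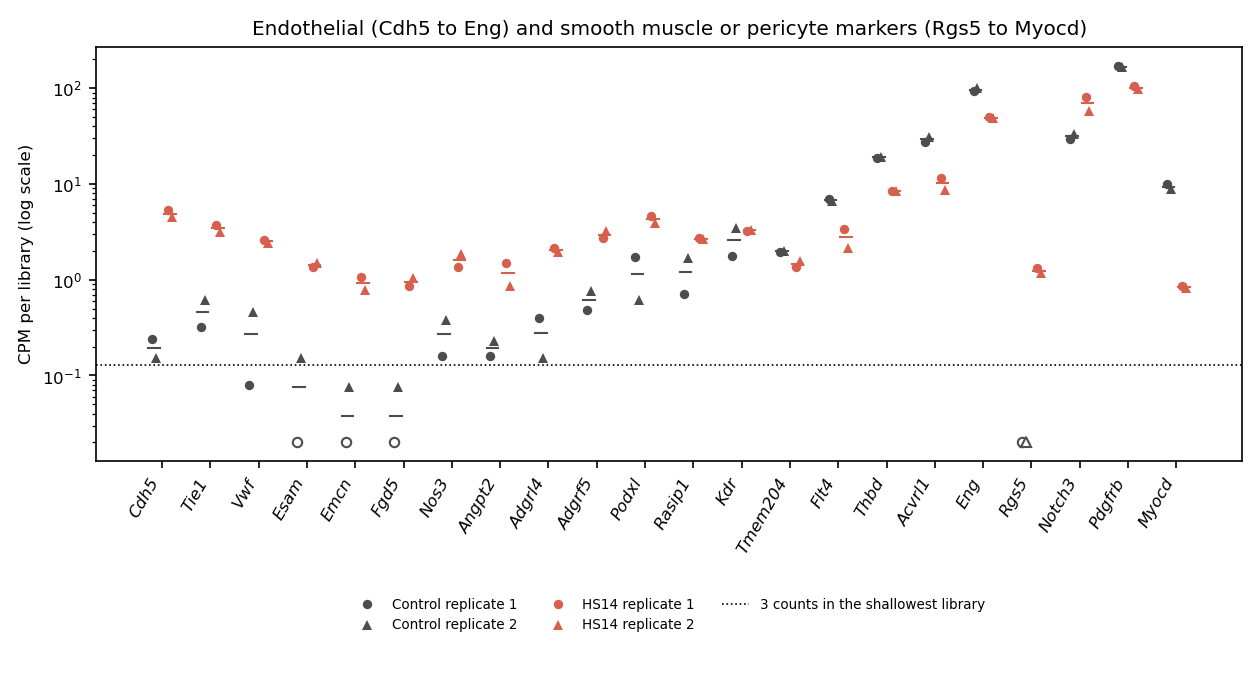
Level of the 18 endothelial markers tested (*Cdh5* to *Eng*) and of 4 smooth muscle and pericyte markers (*Rgs5* to *Myocd*) in each library (y axis, CPM on a log scale), with Control in grey, HS14 in red, open symbols for 0 counts, bars for group means and the dotted line at 3 counts in the shallowest library. The markers from *Cdh5* to *Podxl* are higher in both HS14 libraries, and *Flt4*, *Thbd*, *Acvrl1* and *Eng* are lower in both.

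Promoter sequences were looked up for these genes because ETS factors are known regulators of endothelial genes. The search used AGGAAG, a form of the motif that these factors bind. Other forms were neither counted nor marked. RefSeq promoters (rat build GRCr8) matched 561 of the 747 tested genes with a symbol by gene ID, 26 of the 37 upregulated and 153 of the 214 downregulated DEGs among them. In the 250 bases before the transcription start, AGGAAG on either strand was present in 4 of the 7 matched endothelial DEGs that rose, in 29.4% of all 27457 promoters, in 27.6% of the matched genes with a symbol, in 23.1% of the upregulated DEGs and in 24.2% of the downregulated DEGs. A match is a description of these letters only. The 3 promoters below are those of *Tie1*, *Nos3* and *Emcn*, shown 5′ to 3′ on the gene's strand up to the base before the start, with matches to AGGAAG or its reverse complement CTTCCT in capitals. That of *Tie1* is at chr5:137304982-137305231 (minus strand), that of *Nos3* at chr4:11706582-11706831 (minus strand) and that of *Emcn* at chr2:228564289-228564538 (plus strand), all in GRCr8 and upstream of the first exon.
Tie1: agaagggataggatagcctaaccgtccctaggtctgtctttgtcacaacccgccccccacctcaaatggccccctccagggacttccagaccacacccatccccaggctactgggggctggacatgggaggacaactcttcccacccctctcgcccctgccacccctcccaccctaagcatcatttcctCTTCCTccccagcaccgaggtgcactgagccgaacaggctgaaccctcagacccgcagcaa
Nos3: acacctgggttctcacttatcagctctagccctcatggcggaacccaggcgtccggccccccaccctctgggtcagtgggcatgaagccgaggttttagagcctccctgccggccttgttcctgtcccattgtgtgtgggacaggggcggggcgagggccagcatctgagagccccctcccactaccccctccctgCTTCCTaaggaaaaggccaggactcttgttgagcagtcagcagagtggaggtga
Emcn: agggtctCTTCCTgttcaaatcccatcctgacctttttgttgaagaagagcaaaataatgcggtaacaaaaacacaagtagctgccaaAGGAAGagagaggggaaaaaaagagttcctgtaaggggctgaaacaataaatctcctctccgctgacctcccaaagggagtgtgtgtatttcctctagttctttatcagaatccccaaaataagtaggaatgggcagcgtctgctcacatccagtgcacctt

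The promoters of *Grem1* and *Atp2a3*, a BMP antagonist that fell and a calcium pump that rose, are shown for comparison with matches to the GC box GGGCGG or its reverse complement CCGCCC in capitals, where 2 adjoining matches in *Atp2a3* share a base. The window of *Grem1* (chr3:120978320-120978569 (minus strand)) held 3 matches and that of *Atp2a3* (chr10:58080402-58080651 (plus strand)) held 4. The motif was present in 32.4% of all promoters, 47.1% of the matched genes with a symbol, 50.3% of the downregulated DEGs and 57.7% of the upregulated DEGs.
Grem1: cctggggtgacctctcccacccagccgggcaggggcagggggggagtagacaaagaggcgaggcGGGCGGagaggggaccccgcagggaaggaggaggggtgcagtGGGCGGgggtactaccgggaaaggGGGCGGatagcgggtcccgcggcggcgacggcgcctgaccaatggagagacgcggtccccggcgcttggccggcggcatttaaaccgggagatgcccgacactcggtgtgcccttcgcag
Atp2a3: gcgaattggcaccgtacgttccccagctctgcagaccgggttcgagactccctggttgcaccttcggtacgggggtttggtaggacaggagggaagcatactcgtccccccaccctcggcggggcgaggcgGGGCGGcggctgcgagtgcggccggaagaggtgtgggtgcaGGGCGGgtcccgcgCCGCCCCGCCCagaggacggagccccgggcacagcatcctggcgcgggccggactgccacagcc

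Other motifs were searched in the same windows. The E-box CAGCTG, which reads the same on both strands, was in 15.0% of the downregulated and 7.69% of the upregulated DEGs against 18.9% of the matched genes with a symbol and 11.9% of all promoters. The AP-1 motif TGANTCA on either strand was in 9.15% of the downregulated and 7.69% of the upregulated DEGs. It was in 7.31% of the matched genes with a symbol and 6.36% of all promoters. TATAAA on the gene's strand was in 9.80% of the downregulated and 7.69% of the upregulated DEGs. It was in 8.38% of the matched genes with a symbol and 8.38% of all promoters. The antioxidant response motif TGACNNNGC on either strand was in 0 of the 9 matched downregulated DEGs of aldehyde, retinoid and glutathione metabolism. It was in 10.9% of the matched genes with a symbol and 10.2% of all promoters.

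To show where HS14 differed from the shorter suspensions, all 10 libraries were fitted together and HS14 was compared with HS1, HS3 and HS7 directly. These comparisons share the HS14 libraries. Of the 265 genes downregulated against Control, 200 were also lower as DEGs in HS14 than in HS3, where 4.51% of all genes tested were (median log2 difference -2.57). In HS14 against HS1 it was 66 genes (0.935% of all genes, median -1.02) and against HS7 26 genes (2.16% of all genes, median -0.59). Of the 69 upregulated genes, 38 were higher than in HS3 (1.34% of all genes), 32 higher than in HS1 (1.31%) and 1 higher than in HS7 (0.161%). The HS14 group had the lowest mean of the 5 groups for 155 of the 265 downregulated DEGs, HS7 for 55 and HS1 for 51. It had the highest mean for 54 of the 69 upregulated DEGs and HS7 for 11. Since these genes were chosen for their difference from Control in the same HS14 libraries, these counts describe them and are no test.

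For *Grem1*, HS14 and HS7 did not differ past the test. The HS1 and HS3 cultures had means of 86.3 and 339 CPM, those of HS7 and HS14 were 15.7 and 14.1 CPM, and HS14 differed from HS7 by -0.23 (standard error 0.09, adjusted p = 0.0644). *Krt7* was likewise at 5.07 CPM in HS7 and 5.48 CPM in HS14 (difference 0.01, standard error 0.30), against 47.0 and 45.0 CPM in HS1 and HS3. For *Col1a1* and *Il1rn*, HS14 lay near HS1 instead. *Col1a1* had a mean of 2365 CPM in HS14 and 2229 CPM in HS1, against 15650 and 7579 CPM in HS3 and HS7, and the difference between HS14 and HS1 was 0.09 (standard error 0.09, adjusted p = 0.486). *Il1rn* had 2.27 CPM in HS1, 112 in HS3 and 8.56 in HS7. *Thy1* was lower in HS14 than in each of the other suspension groups, by -1.13 against HS1, -3.71 against HS3 and -1.14 against HS7. *Atp2a3* was higher in HS14 than in each of them, by 1.01 (standard error 0.15) against HS1, 3.19 (0.18) against HS3 and 1.0 (0.15) against HS7. *Dcn* was also higher, by 3.57, 2.53 and 0.72. *Cdh5* rose above HS1 by 5.19 and above HS3 by 2.93, but its difference from HS7 (0.88) did not pass (adjusted p = 0.0388). *Fgf10* was lowest in HS7, at 0.584 CPM, and HS14 lay above it by 1.48 (adjusted p = 0.00131).

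Both thresholds were passed in the same direction against Control, HS1, HS3 and HS7 by 2 downregulated genes and 1 upregulated gene, all at low levels. The prostaglandin E receptor *Ptger1* had 1.27 and 1.37 CPM in Control, 0.142 and 0.517 CPM in HS14 and means between 1.42 and 1.58 CPM in the other groups. Against Control its adjusted p was 0.00225 with a log2 fold change of -2.08, or 0.0963 and -1.38 without HS14 replicate 1, and the change was -3.21 without HS14 replicate 2. It also missed the threshold without Control replicate 1 (0.0115) or Control replicate 2 (0.0255). *Tmem88*, an inhibitor of Wnt signalling at the membrane, had 1.67 and 1.75 CPM in Control, 0.284 and 0.474 CPM in HS14 and means between 1.09 and 2.44 CPM elsewhere. Myocilin (*Myoc*), a secreted glycoprotein, had 0.159 and 0.152 CPM in Control, 1.06 and 1.98 CPM in HS14 and at most 0.236 CPM on average in the other groups.

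**Figure D5:**
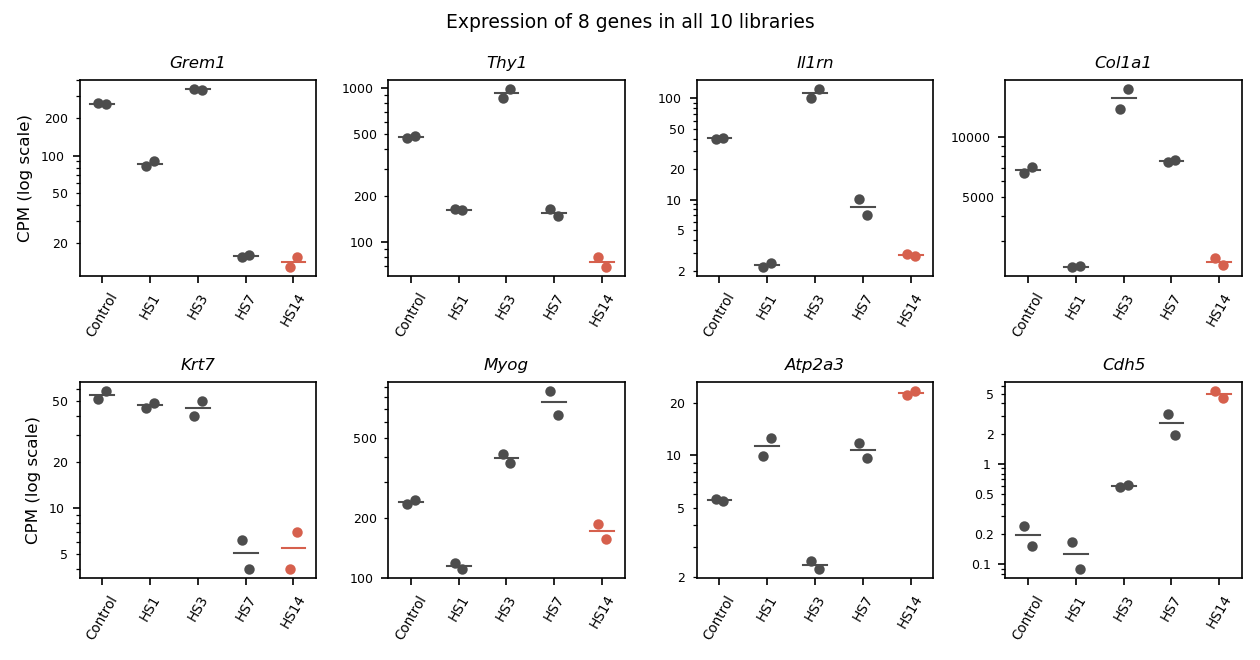
Level of 8 genes in all 10 libraries (y axes, CPM on log scales that differ between panels), with 1 point per library, bars for group means and HS14 in red. *Grem1* and *Krt7* are as low in HS7 as in HS14, *Col1a1* and *Il1rn* are highest in HS3, and *Atp2a3* is highest in HS14.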

How the data were processed

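RNA of myoblast cultures was measured by polyA-selected, stranded mRNA sequencing in 10 libraries, 2 in each of the groups Control, HS1, HS3, HS7 and HS14. The authors deposited 1 table of raw counts per gene for 32622 Ensembl genes, aligned with STAR and counted with featureCounts. The submitters' processing notes list STAR 2.7, featureCounts 1.6.4 and FastQC 0.11.9. The study's methods and these notes name different rat genome builds, so no coordinates of the counted genes are given. Promoters are from RefSeq on GRCr8 and were matched by gene ID. Groups were taken from the sample titles, and 0 columns were left unmapped.

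The 4 libraries of HS14 and Control were fitted from the counts with edgeR 4.0.16 (filtering of low counts by filterByExpr, TMM scaling, robust quasi-likelihood fit), with Benjamini-Hochberg adjustment over 13160 genes. The DEG thresholds (log2 fold change beyond 1.5, adjusted p below 0.01) follow the study's methods. Standard errors were derived from the fit. HS14 was set against HS1, HS3 and HS7 in a fit of all 10 libraries. DESeq2 1.42.0 was the alternative tool. On simulated counts for 13160 genes of HS14 against Control, with 200 genes changed by a log2 fold of 2.5, edgeR recovered 193 with 1 false call and DESeq2 185 with 0. The planted fold lay well beyond the threshold of 1.5, and the simulated spread was that of the same libraries. These numbers therefore do not cover genes near the threshold or spread between animals. Total counts of 23195342 to 28175200 per library put the floor of 3 counts at 0.107 to 0.129 CPM. In the 4 libraries, 70.4% to 72.0% of counts from 1 to 20 were even, so that the 2 mates of a read pair may have been counted singly. Floors and intervals cover counting error only. The 2 libraries of a group differed by more than sampling noise (chi-square per gene 3.70 in Control and 5.27 in HS14), so both were kept.

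Symbols came from the study's supplementary list of DEGs (817 identifiers, 770 with a symbol). Of that list only the identifiers, the symbols and the time point at which a gene was listed were used, and its fold changes and p-values were not. The members and gene lists were chosen with earlier results of these data known. Genes were named by a rule: per list up to 4 DEGs with the largest fold change among those with at least 5 CPM in the higher group and no overlap, and up to 2 members with the highest CPM that did not pass. To these came up to 10 DEGs with a symbol per direction under the same conditions, all tested calcium genes, *Myog*, *Mymk*, *Mymx*, *Myh3*, *Myh7*, *Tnnt1*, *Ckm*, *Mb*, *Grem1*, *Bmp2*, and up to 2 identifiers without a symbol per direction. The rule named 122 genes, and 73 further genes were chosen after their values were seen, as were a few more members (*Cdkn1c*, *Flt4*, *Fstl3* and *Msc*). Some of the genes so chosen are not reported here.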

Additional observations from a re-analysis of the deposited data

Results flagged for a closer look

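For 10 of the genes named, both suspended groups differed from Control in opposite directions, lower in HS14 and higher in HS3, each past an adjusted p of 0.01, and the direct comparison of HS14 with HS3 passed as well (edgeR's quasi-likelihood test over all 10 libraries). The log2 difference HS14 minus HS3 was -6.22 for the receptor partner *Ramp3*, -5.56 for the Notch ligand *Dlk1*, -5.37 for the interleukin 1 receptor antagonist *Il1rn* and -4.78 for the dipeptidase *Dpep1*. It was -4.02 for the Wnt inhibitor *Nkd2*, -3.81 for the guidance ligand *Slit3*, -3.73 for adrenomedullin (*Adm*), -3.7 for the matricellular *Ccn5* and -3.09 for thrombospondin 2 (*Thbs2*). *Thbs2*, for example, had 606 and 654 CPM in Control, a mean of 1762 CPM in HS3 and 241 and 197 CPM in HS14.

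The Y-linked deubiquitinase gene *Usp9y* differed by -6.38. All rats were males, and the counts of *Usp9y* were 44 and 48 in Control and 2 and 2 in HS14 (1.75 and 1.83 CPM in Control and 0.0710 and 0.0862 CPM in HS14). Its mean was 0.0448 CPM in HS1, 6.54 CPM in HS3 and 1.41 CPM in HS7. The cause was not tested.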

How the results depend on the processing

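The 265 downregulated and 69 upregulated DEGs of HS14 against Control were recounted under 13 other settings. DESeq2 called 35 upregulated DEGs on the 4 libraries and 33 on all 10, and a filter of 1 CPM in 2 libraries left 42, in part because fewer genes were tested. A log2 threshold of 1 gave 140 upregulated and 516 downregulated DEGs. Leaving out 1 library at a time gave 46 to 60 upregulated and 219 to 246 downregulated DEGs, and the remaining counts were within 1.5 times. A log2 threshold of 1 gave 325 higher and 281 lower DEGs against HS1, 367 and 999 against HS3, and 104 and 530 against HS7. With the replicate number as a block there were 60 upregulated and 254 downregulated DEGs. By the adjusted p of 0.01 alone, 0 of 195 named genes changed whether they passed, whereas *Fstl3*, named beside them, no longer passed. The fold threshold was not part of this check of named genes. Replicate numbers are not known to pair the libraries. Deviations of libraries with the same number correlated at 0.00611, over 2 pairs.

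None of the named genes reversed where a setting gave a value, which was 191 to 195 of 195 genes. *Kit*, *Emcn*, *Fgd5* or *Cacna1b* had none in some. With all 10 libraries in the edgeR fit 11 no longer passed, with DESeq2 7 on 10 libraries and 4 on 4 libraries, and with counts divided by 2, as for read pairs, 1 did not pass, *Notch3* (adjusted p = 0.0123). In the matrix list, leaving out HS14 replicate 2 gave 8 downregulated DEGs in place of 13. The endothelial list had 8 upregulated DEGs with DESeq2 on 10 libraries or with the 1 CPM filter, in place of 11. The depth limits genes near 3 counts, such as *Kit*, *Rgs5*, *Emcn* and *Fgd5*, whose Control level was not detectable or barely so.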

Other observations

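Genes outside or at the edge of the lists also differed. *Akap12*, a scaffold for protein kinase A that restrains migration, fell from 405 and 416 to 140 and 148 CPM (log2 fold change -1.55, standard error 0.05), and the annexin *Anxa8* from 23.7 and 23.4 to 2.34 and 3.79 CPM (-3.00, standard error 0.16). The uncharacterised gene *RGD1562420* was at 17.0 and 16.3 CPM in Control and 0.639 and 0.647 CPM in HS14 (-4.72), and it was also low in HS3 and HS7, with means of 0.975 and 0.447 CPM, but not in HS1, at 23.5 CPM. *Fam131b* fell from 13.5 and 12.8 to 1.35 and 1.12 CPM (-3.43). *RGD1563668* rose from 1.79 and 2.06 to 6.60 and 7.50 CPM (1.83) and the zinc finger gene *Zbtb37* from 2.86 and 1.75 to 7.31 and 6.34 CPM (1.53).

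Of the 21 cell cycle genes listed, 3 had a symbol. The chromatin proteins *Hmga1* and *Hmga2*, which are high in dividing and immature cells, fell from 239 and 248 to 120.3 and 128 CPM (-1.01) and from 16.9 and 16.7 to 6.14 and 6.25 CPM (-1.47). The cyclin-dependent kinase inhibitor *Cdkn1c* had 5.01 and 5.87 CPM in Control and 8.09 and 8.54 CPM in HS14 (0.57, adjusted p = 0.00695). It did not pass without Control replicate 1 (adjusted p = 0.0872), Control replicate 2 (0.0102) or HS14 replicate 2 (0.0228), with all 10 libraries (0.364) or with DESeq2 (0.061 on 4 and 0.343 on 10 libraries). Regulatory light chain *Mylpf* of fast fibres fell from 163 and 163 to 95.8 and 101 CPM (-0.77), and the haem-degrading enzyme *Hmox1* from 179 and 172 to 125 and 129 CPM (-0.50).

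Of the DEGs without a symbol, 32 were upregulated and 51 downregulated. ENSRNOG00000000187 and ENSRNOG00000006324 were at 0 CPM in both Control libraries and at 0.781 and 0.517 CPM and at 0.497 and 0.776 CPM in HS14. ENSRNOG00000025415 was at 0.398 and 0.419 CPM in Control and 0 CPM in both HS14 libraries, and ENSRNOG00000052518 at 1.19 and 0.572 CPM in Control and 0 and 0.0431 CPM in HS14.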
